A study of Mus musculus with 10 samples.

Results

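The mitochondrial genome of the mouse carries 37 annotated genes, 2 for ribosomal RNAs (rRNAs), 13 for proteins of the respiratory chain and ATP synthase, and 22 for transfer RNAs (tRNAs). The members described here are the rows of the deposited table whose Ensembl identifier pairs with a symbol that begins with mt-, in genome order and by strand. That rule found 27 of the 22891 genes in the table, namely both rRNAs, all 13 protein genes and 12 tRNAs; the other 10 tRNAs are not analysed here. RNA had been extracted from 5 whole ovaries labelled Uba3 cKO and from 5 control ovaries. All ovaries came from mice of age 3 weeks on a C57/Bl6/N;129SvEv7 strain background, and the labels call them non-stimulated. The product of Uba3 is the catalytic partner in the enzyme pair that charges NEDD8, a small ubiquitin-like modifier, and the series title names mitochondrial transcription and oocyte quality as the subject. The labels used here name neither the deleted exons, nor the Cre driver, nor the cells that lost the gene, and they give no allele for the controls. They do not say whether each ovary came from its own animal, so a p-value here reflects sample-to-sample spread, which may be technical.

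Mitochondrial DNA is a small circle that is read almost end to end from promoters in its control region, which gives long precursors from each of the 2 strands. The tRNAs lie between most of the rRNA and protein genes, and their excision releases the rRNAs and mRNAs. Transcription is the work of the nuclear-encoded polymerase POLRMT with the factors TFAM and TFB2M, and oocytes are known for carrying very many copies of the genome. The heavy strand serves as template for 28 of the genes, both rRNAs and 12 protein genes among them, while the light strand serves for mt-Nd6 and 8 tRNAs.

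The libraries had the markers of ovary. Oocyte markers averaged between 9.28 and 10.18 log2 units in Uba3 cKO libraries and between 9.52 and 10.26 in control libraries over 15 genes. Granulosa markers averaged between 13.65 and 13.87 in Uba3 cKO libraries and between 13.64 and 13.73 in control libraries over 8 genes. Uba3 itself stood at 10.12 ± 0.069 (SD, n = 5) in Uba3 cKO ovaries and at 10.12 ± 0.18 (SD, n = 5) in control ovaries, with a 95% interval of the fold from 0.887 to 1.13 (limma adjusted p = 0.9999). One value per gene for an entire ovary shows neither the deleted exons nor the cells that lost them, so it did not check the labels, and the groups are named as labelled. Values are log2 normalised expression as deposited, the depth behind them is unknown, and a difference is Uba3 cKO minus control on that scale. In a whole organ, fewer cells of a type and less RNA per cell cannot be told apart.

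Almost every mitochondrial transcript had a slightly lower mean in Uba3 cKO ovaries, and no single one passed the test over all genes. Of the 27 members, 23 passed the filter on low values (an average value, unlogged, of 10 or more), and 22 of these had the lower mean in Uba3 cKO ovaries, where 49.8% of all 15629 tested genes did. The median difference over the 23 was -0.23 log2 units, against 0.00034 over all tested genes. By limma with Benjamini-Hochberg adjustment, 0 of the 23 passed an adjusted p of 0.05, as did 0% of all tested genes, and each of the 23 had an adjusted p of 0.9999. At an unadjusted p under 0.05 there were 6 members, all with the lower mean in Uba3 cKO, a direction and threshold met by 0.819% of all tested genes, against 0 members with the higher mean (0.973% of all tested genes) and 1.79% in either direction. These 6 were mt-Rnr1, mt-Rnr2, mt-Nd2, mt-Nd4, mt-Co3 and mt-Tc. On the same values, the exact two-sided permutation test gave 6 members under 0.05, with mt-Nd1 and mt-Cytb in place of mt-Co3 and mt-Tc. The share of all tested genes was not computed for the permutation test. By limma the number of members ran from 2 to 9 when 1 library at a time was left out, and that of all tested genes from 199 to 392. The number of members was 2 without control replicate 3, 4 or 5, and 3 without Uba3 cKO replicate 1, 2 or 4. Members share precursors and libraries, so their number is not a number of independent results.

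**Figure D1:**
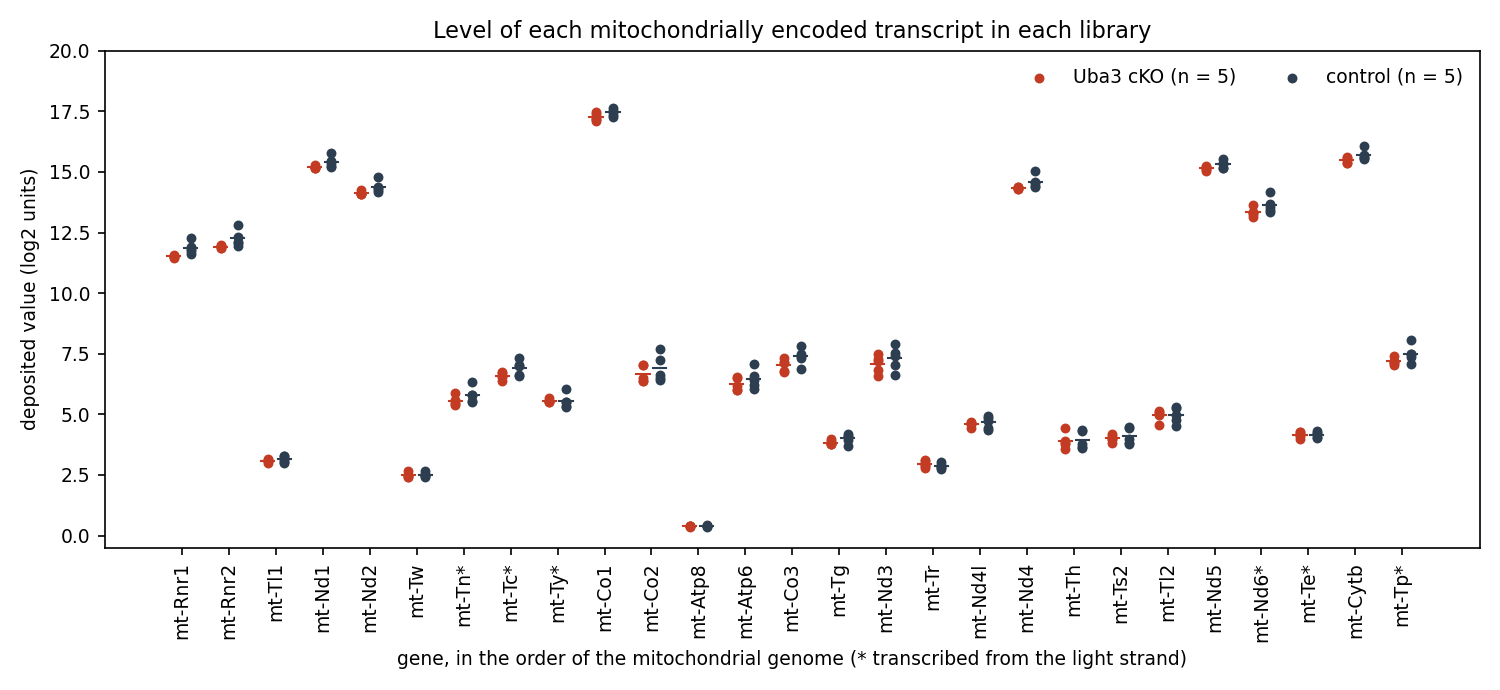
Deposited log2 value of each of the 27 mitochondrial transcripts in each library, in genome order, with Uba3 cKO libraries (n = 5, red) left of control libraries (n = 5, dark) and group means as short lines. Levels run from mt-Atp8 at 0.38 in Uba3 cKO and 0.39 in control to mt-Co1 at 17.26 in Uba3 cKO and 17.45 in control, and the distance between groups is small beside that range.

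The rRNAs form the cores of the small and large subunit of the mitochondrial ribosome, and 1 of the 2 had fully separated groups. The small rRNA mt-Rnr1 (ENSMUSG00000064337) had 11.54, 11.50, 11.54, 11.46 and 11.59 log2 units in Uba3 cKO replicates 1 to 5, against 11.63, 11.76, 12.26, 11.89 and 11.82 in control replicates 1 to 5. All 5 Uba3 cKO libraries lay below every control, with control replicate 1 only narrowly above the highest of them. Such a separation, with all Uba3 cKO libraries below all controls, was met by 0.122% of tested genes, and mt-Rnr1 was the only 1 of the 23 members to show it, while 0 members had all Uba3 cKO libraries above all controls (0.198% of tested genes). With quantile normalization 0 members were separated in this way, and with 1 library left out there were from 1 to 4, the most without control replicate 1. Leaving out a library cannot undo a separation, so the number can only stay or rise. The share of all tested genes was not computed for these settings. The difference of mt-Rnr1 was -0.34 (standard error 0.098, 95% interval from -0.55 to -0.13), a fold of 0.788. Its unadjusted limma p was 0.00387 and its exact two-sided permutation p was 0.00794, the smallest that 5 against 5 allows.

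The large rRNA mt-Rnr2 (ENSMUSG00000064339) had 11.97, 11.93, 11.88, 11.86 and 11.94 log2 units in Uba3 cKO libraries, against 11.96, 12.10, 12.82, 12.32 and 12.08 in control libraries. The groups met at control replicate 1, and control replicate 3 was the highest of the 10. The difference was -0.34 (standard error 0.13, unadjusted limma p = 0.0214, exact two-sided permutation p = 0.0159). Without control replicate 3 the difference was -0.24 for mt-Rnr1 and -0.20 for mt-Rnr2. With the slope on transcript length described below as a covariate it was -0.30 for mt-Rnr1 and -0.28 for mt-Rnr2. The level of the large over the small rRNA was 0.39 ± 0.042 log2 units in Uba3 cKO libraries and 0.38 ± 0.11 in control libraries (SD, n = 5 each), so the pair kept nearly the same proportion on average.

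Transcripts of 7 protein genes were abundant, and control replicate 3 was the highest library for each of the 7. Of these genes 5 encode subunits of complex I, the NADH dehydrogenase that feeds electrons into the chain. The first gene after the rRNAs, mt-Nd1, had 15.19, 15.14, 15.28, 15.17 and 15.15 log2 units in Uba3 cKO libraries, against 15.21, 15.24, 15.79, 15.44 and 15.38 in control libraries. Only Uba3 cKO replicate 3 reached into the control range. Its difference was -0.23 (standard error 0.12, unadjusted limma p = 0.0724, exact two-sided permutation p = 0.0317), and it was -0.13 without control replicate 3.

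The next complex I gene, mt-Nd2, had 14.14, 14.09, 14.26, 14.11 and 14.09 log2 units in Uba3 cKO libraries, against 14.24, 14.17, 14.79, 14.38 and 14.34 in control libraries. Again only Uba3 cKO replicate 3 overlapped with the controls, and the difference was -0.25 (standard error 0.11, unadjusted limma p = 0.0413, exact two-sided permutation p = 0.0238). For mt-Nd4 the values were 14.40, 14.29, 14.37, 14.32 and 14.31 in Uba3 cKO libraries, against 14.36, 14.42, 15.03, 14.60 and 14.56 in control libraries, a difference of -0.26 (standard error 0.12, unadjusted limma p = 0.0431, exact two-sided permutation p = 0.0238). Control replicate 1 was inside the Uba3 cKO range and control replicate 3 far above it. Without control replicate 3, neither mt-Nd2 nor mt-Nd4 was at an unadjusted p under 0.05, and their differences were both -0.15.

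The remaining complex I genes of this kind lie side by side on opposite strands. The heavy-strand gene mt-Nd5 stood at 15.15 ± 0.070 in Uba3 cKO ovaries and 15.32 ± 0.16 in control ovaries (SD, n = 5 each), a difference of -0.17 (standard error 0.099, unadjusted limma p = 0.114, exact two-sided permutation p = 0.0635). Its light-strand neighbour mt-Nd6 had 13.65, 13.26, 13.16, 13.34 and 13.29 log2 units in Uba3 cKO libraries, against 13.35, 13.44, 14.18, 13.66 and 13.56 in control libraries. Here Uba3 cKO replicate 1 was nearly as high as control replicate 4, and the groups overlapped, with a difference of -0.30 (standard error 0.14, unadjusted limma p = 0.0596, exact two-sided permutation p = 0.0873). Without control replicate 3 the difference was -0.16 for mt-Nd6 and -0.11 for mt-Nd5. The level of mt-Nd6 relative to mt-Nd5 was -1.81 ± 0.17 log2 units in Uba3 cKO libraries and -1.68 ± 0.17 in control libraries (SD, n = 5 each), with the highest values in Uba3 cKO replicate 1 at -1.54 and control replicate 3 at -1.38. The genes overlap by 14 bases, and counting by strand is not stated in the sources used here, so reads of the heavy-strand precursor across mt-Nd6 cannot be told apart from mt-Nd6 itself.

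Core proteins of complexes III and IV complete the abundant set. The gene mt-Cytb, for cytochrome b of complex III, had 15.62, 15.37, 15.55, 15.47 and 15.38 log2 units in Uba3 cKO libraries, against 15.55, 15.58, 16.08, 15.69 and 15.63 in control libraries, a difference of -0.22 (standard error 0.12, unadjusted limma p = 0.0867, exact two-sided permutation p = 0.0397), which was -0.13 without control replicate 3. The groups overlapped through Uba3 cKO replicates 1 and 3. For mt-Co1, the copper and heme subunit of cytochrome c oxidase (complex IV), the values were 17.47, 17.09, 17.40, 17.20 and 17.17 in Uba3 cKO libraries, against 17.36, 17.27, 17.64, 17.49 and 17.50 in control libraries. Uba3 cKO replicates 1 and 3 lay inside the control range, and the difference was -0.19 (standard error 0.16, unadjusted limma p = 0.26, exact two-sided permutation p = 0.0794). With quantile normalization the differences of the abundant genes were nearer to 0, at -0.048 for mt-Co1, -0.026 for mt-Nd5, -0.12 for mt-Nd4 and -0.12 for mt-Cytb. They were -0.14 for mt-Nd1, -0.16 for mt-Nd2 and -0.22 for mt-Nd6. This scaling gives each rank the same value in every library, so genes near the top can differ only by a change of rank. Without control replicate 3 the mean of the 7 abundant genes differed by -0.14, against -0.23 with it.

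**Figure D2:**
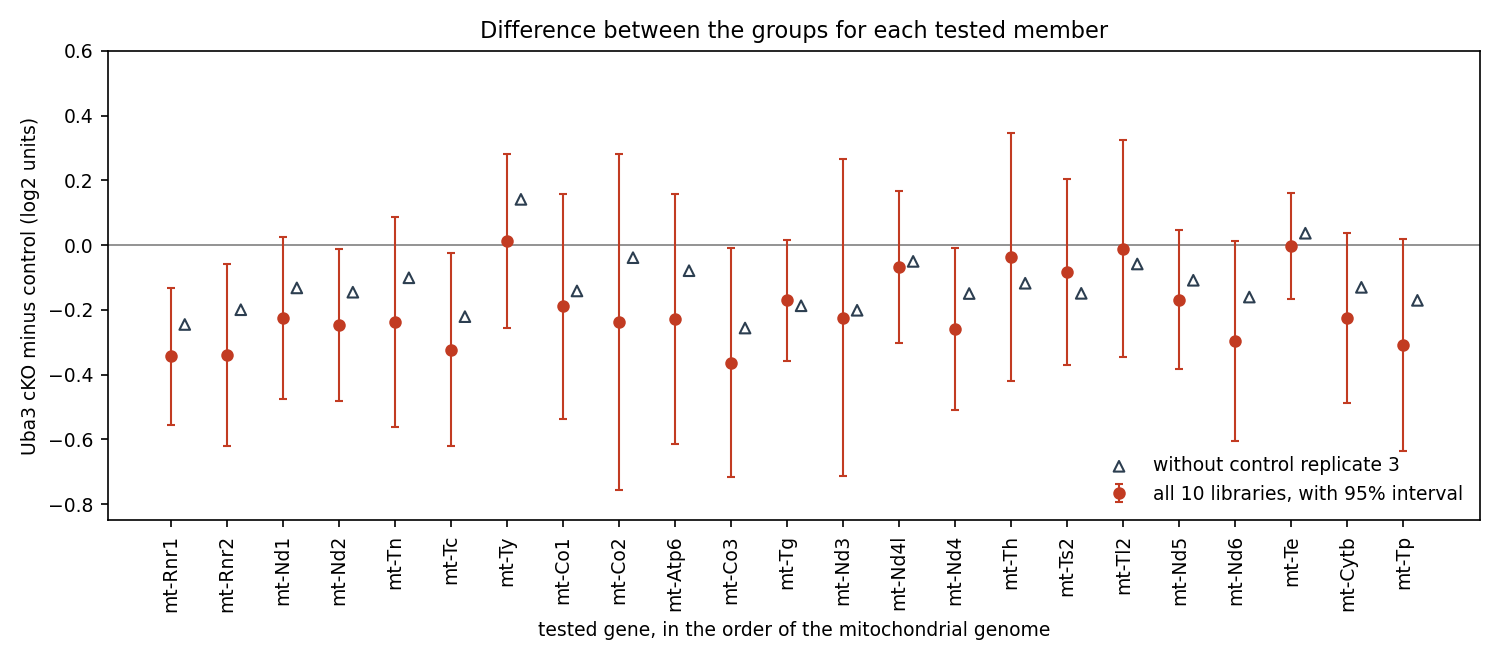
Difference between the groups (Uba3 cKO minus control, log2 units) for each of the 23 tested members in genome order. Circles with bars give the estimate and its 95% interval from all 10 libraries, and triangles give the estimate without control replicate 3. The circles lie below 0 for 22 of 23 members, the bars of 6 members stay below 0, and most triangles lie nearer to 0 than their circles.

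The control libraries set much of the distance. Control replicate 3 was the highest of the 10 libraries in 17 of 23 tested members, as it was in 23.6% of all tested genes, and it was above the mean in all 9 of the rRNAs and abundant protein genes. Control replicate 4 was also above the mean in all 9 of these transcripts and control replicate 5 in 8, whereas control replicates 1 and 2 were above it in 1 and 2. Of the Uba3 cKO libraries, replicate 1 was above the mean in 3 of them, replicates 3 and 4 in 1 each, and replicates 2 and 5 in 0. By this count controls 1 and 2 were close to the Uba3 cKO libraries, and controls 3, 4 and 5 were above them. Single values did not always follow this split. In mt-Nd6, control replicate 5 had 13.56 log2 units and Uba3 cKO replicate 1 had 13.65.

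The mean over the 12 tested protein genes was 11.37 ± 0.034 in Uba3 cKO libraries and 11.60 ± 0.24 in control libraries (SD, n = 5 each). Without control replicate 3 the control value was 11.51 ± 0.14 (SD, n = 4). The SD was larger in control than in Uba3 cKO libraries in 21 of 23 members, as it was in 62.2% of all tested genes. In linear terms, the 27 members together took 2.19%, 1.83%, 2.04%, 1.92% and 1.75% of the summed values in Uba3 cKO libraries, against 1.99%, 2.02%, 2.68%, 2.20% and 2.18% in control libraries. Uba3 cKO replicate 1 thus had a larger share than 3 of the controls.

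Library properties moved with these levels in part. For each library, deviations from the gene means were regressed on log2 transcript length over 9182 well expressed genes, and the slope ran from -0.074 in replicate 1 to 0.069 in replicate 4 among Uba3 cKO libraries, and from -0.18 in replicate 3 to 0.062 in replicate 5 among controls. Control replicate 3 and Uba3 cKO replicate 1, whose long transcripts were lowest relative to short ones, had the largest mitochondrial share of the controls and of the Uba3 cKO libraries. With this slope as a covariate, 8 members and 401 of all tested genes were at an unadjusted p under 0.05, against 6 and 280 without it. By limma 0 members passed the adjusted threshold, and the mean difference of the protein genes was -0.19. With the mean of the oocyte markers as a covariate, 6 members and 448 of all tested genes were at an unadjusted p under 0.05. The mean difference of the protein genes was then -0.22. Adipocyte markers, from a tissue that can cling to the ovary, had means from 5.36 to 6.68 in Uba3 cKO libraries and from 5.46 to 5.99 in control libraries over the 2 of 5 markers in the table that passed the filter, with Adipoq, their defining adipokine, below it, and erythroid markers from 7.30 to 8.13 in Uba3 cKO and from 7.26 to 9.06 in control over 4 genes. The part of either cell type in the mitochondrial levels was not tested.

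**Figure D3:**
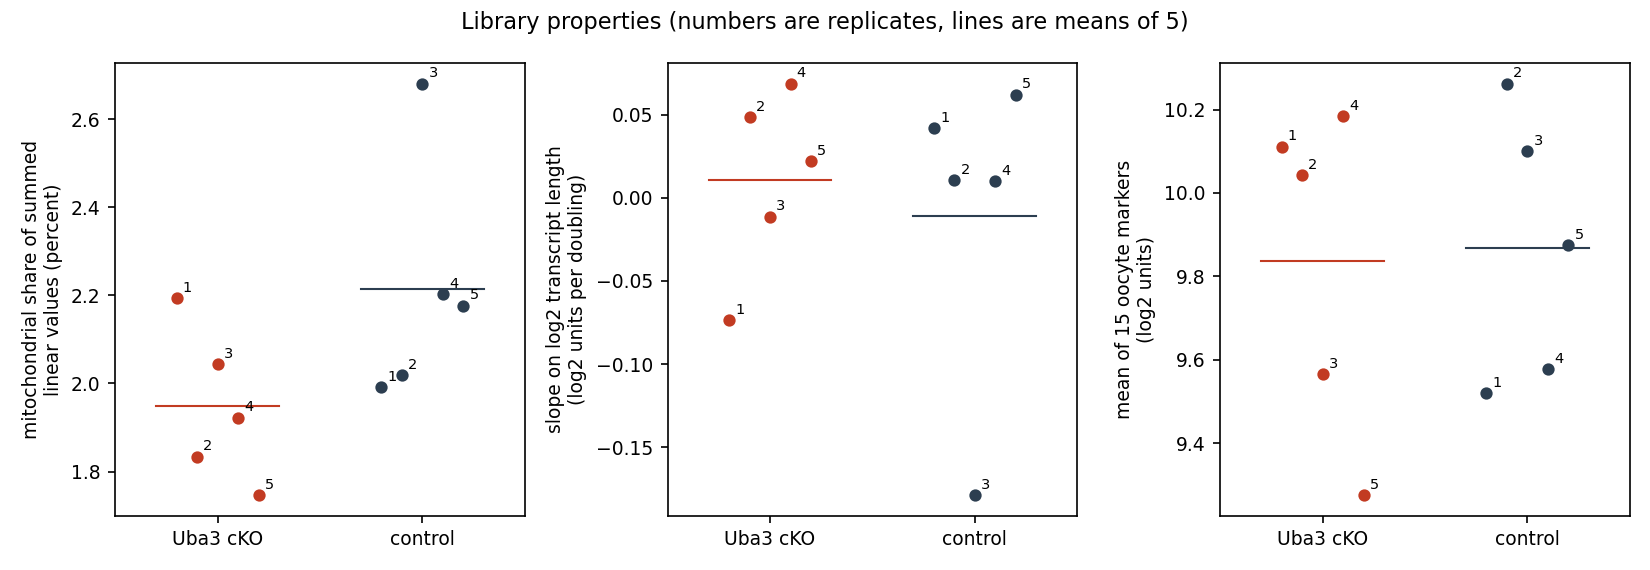
Mitochondrial share of the summed linear values (percent, left), slope of each library on log2 transcript length (middle) and mean of 15 oocyte markers (log2 units, right), for Uba3 cKO and control libraries, with replicate numbers beside the points and means as lines. Control replicate 3 stands apart at 2.68% and at a slope of -0.18, while its oocyte mean of 10.10 lies within the range of the others.

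Low values throughout were found for 5 other protein genes, and these are the ones with a near-identical copy over almost their full length among nuclear transcripts. The lowest protein gene of all, mt-Atp8, had 2.67 log2 units per kilobase in Uba3 cKO ovaries and 2.69 in control ovaries. It departs from this match among annotated transcripts, with only 21.1% of its length found, the 43 bases that it shares with mt-Atp6. Nuclear sequence outside annotated transcripts was not searched, so a longer copy of mt-Atp8 could have been missed. The genes mt-Co2 and mt-Co3 encode further core subunits of complex IV, mt-Atp6 encodes a membrane subunit of ATP synthase (complex V), and mt-Nd3 and mt-Nd4l encode small subunits of complex I. Per kilobase of gene, the 5 had levels between 6.35 and 8.60 log2 units in Uba3 cKO ovaries and between 6.42 and 8.83 in control ovaries. The 7 abundant genes had levels per kilobase between 13.87 and 16.64 in Uba3 cKO ovaries and between 14.13 and 16.83 in control ovaries, with mt-Co1 at the top of both. Among them mt-Cytb and mt-Nd1 had nearly the same level per kilobase, 15.29 and 15.25 in Uba3 cKO ovaries and 15.51 and 15.47 in control ovaries. The rRNAs lay between, at 11.59 for mt-Rnr1 and 11.25 for mt-Rnr2 in Uba3 cKO ovaries and at 11.94 and 11.59 in control ovaries. Whether selection of RNA for the libraries set the rRNA levels was not tested. They are therefore not read as the abundance of rRNA relative to mRNA in the ovary.

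A search of the 37 mitochondrial sequences against all GENCODE M21 transcripts found 7 pseudogenes that follow one another without interruption on a single strand of a nuclear chromosome. They match mt-Co2 (Gm28661), mt-Atp6 (Gm10925), mt-Co3 (Gm28437) and mt-Nd4l (Gm10222) at 100% identity over between 98.99% and 99.87% of the gene. The pseudogene Gm28438 matches mt-Nd3 with 1 mismatch in 345 bases. Coverage was partial for the abundant genes, with 63.6% of mt-Nd4 at 100% identity in Gm28439 and 31.3% of mt-Co1 in Gm29216 with 1 mismatch in 483 bases. No transcript of 99% identity was found for mt-Nd1, mt-Nd2, mt-Nd5, mt-Nd6, mt-Cytb or the rRNAs. The 2 mismatches are shown because they are the only bases by which a read could be told from its nuclear counterpart within these matches. The capital marks the substituted base, written as T3C for mt-Nd3 and A1066T for mt-Co1, with positions counted from 1 at the first base of the mitochondrial gene and the nuclear base last. Sequences are those of GENCODE M21 transcripts, 5′ to 3′, covering bases 1 to 33 of mt-Nd3 and 1063 to 1096 of mt-Co1.
mt-Nd3: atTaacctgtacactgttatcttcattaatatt
Gm28438: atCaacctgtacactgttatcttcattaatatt
mt-Co1: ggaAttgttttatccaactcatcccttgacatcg
Gm29216: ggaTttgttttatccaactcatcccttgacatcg
How reads with more than 1 matching place were counted is not given in the sources used here. The levels of these 5 genes and of the nuclear copies are therefore uncertain. So are those of the parts of mt-Nd4 and mt-Co1 inside the matches. The part of the copies in the low values was not tested.

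**Figure D4:**
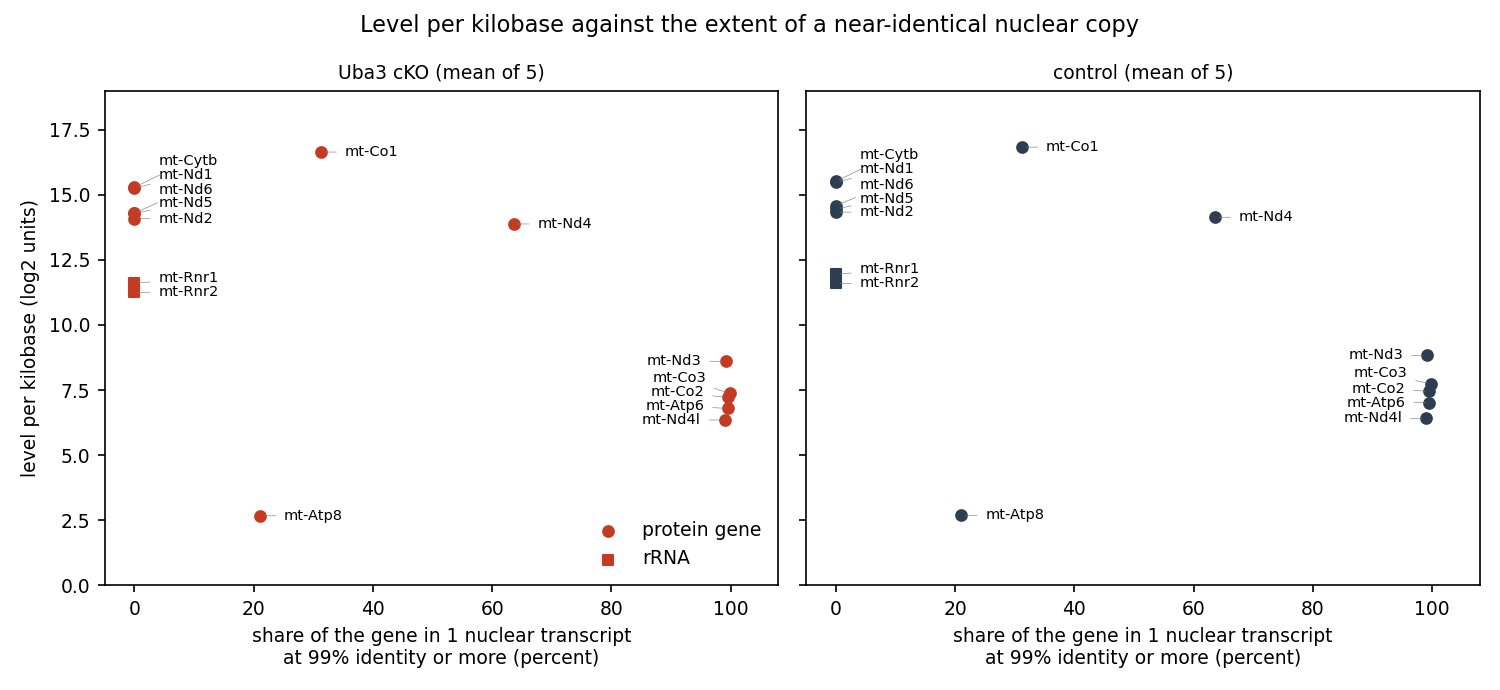
Level per kilobase (log2 units, mean of 5 libraries) of the 13 protein genes (circles) and 2 rRNAs (squares) against the percentage of the gene found in 1 nuclear transcript at 99% identity or more, in Uba3 cKO (left) and control ovaries (right). The 5 genes that are covered almost whole lie between 6.35 and 8.60 in Uba3 cKO ovaries and between 6.42 and 8.83 in control ovaries. The 7 abundant genes, with coverage from 0 to 63.6%, lie at 13.87 or above in Uba3 cKO and 14.13 or above in control ovaries, and mt-Atp8, with coverage of 21.1%, lies lowest in both.

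For mt-Co2 and mt-Atp6 the order of the libraries resembled that of the nuclear copy. The copy is identical over 681 bases of mt-Co2 and 678 of mt-Atp6, where reads cannot be told apart by sequence. The gene mt-Co2 had 6.37, 7.03, 6.50, 7.05 and 6.38 log2 units in Uba3 cKO libraries, against 6.52, 7.26, 7.70, 6.63 and 6.41 in control libraries. Its nuclear copy Gm28661 had 7.18, 7.70, 7.16, 7.56 and 7.03 in Uba3 cKO libraries, against 7.22, 7.82, 8.48, 7.07 and 7.11 in control libraries. Both were high in Uba3 cKO replicates 2 and 4 and in control replicates 2 and 3, so the values split into a higher and a lower set that crossed the groups. The difference was -0.24 for mt-Co2 (standard error 0.24) and -0.21 for Gm28661 (standard error 0.25), and without control replicate 3 they were -0.039 and 0.021. The libraries of the higher set had oocyte marker means between 10.04 and 10.26, but Uba3 cKO replicate 1, with 10.11, belonged to the lower set, and the part of oocyte number was not tested.

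The same libraries were high in mt-Atp6, with 6.17, 6.54, 5.995, 6.50 and 5.99 log2 units in Uba3 cKO libraries, against 6.05, 6.57, 7.06, 6.44 and 6.22 in control libraries. Its copy Gm10925 had 6.49, 6.82, 6.39, 6.75 and 6.29 in Uba3 cKO libraries, against 6.24, 6.92, 7.21, 6.59 and 6.48 in control libraries, with the same 4 libraries highest. For mt-Co3 the values were 6.80, 7.10, 6.74, 7.15 and 7.32 in Uba3 cKO libraries, against 6.86, 7.43, 7.81, 7.50 and 7.33 in control libraries. Its difference of -0.36 (standard error 0.16) was the largest of the 23 members, at an interval from -0.72 to -0.0092 (unadjusted limma p = 0.0451, exact two-sided permutation p = 0.0873), and it was -0.26 without control replicate 3. The difference of mt-Atp6 was -0.23 (standard error 0.18), and it was -0.079 without control replicate 3. The copy of mt-Co3, Gm28437, had 6.21, 6.42, 5.96, 6.47 and 5.97 in Uba3 cKO libraries. In control libraries it had 6.06, 6.65, 6.94, 6.32 and 6.08. Gm28437 was highest in the same 4 libraries as Gm10925. This was not so for mt-Co3, where control replicates 4 and 5 were above Uba3 cKO replicates 2 and 4.

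The small subunit gene mt-Nd3 had another order of libraries. Its values were 7.28, 6.60, 7.22, 6.82 and 7.48 log2 units in Uba3 cKO libraries, against 7.05, 6.62, 7.39, 7.92 and 7.53 in control libraries. It was lowest in Uba3 cKO replicates 2 and 4 and control replicate 2, which were among the highest for mt-Co2. The difference was -0.22 (standard error 0.23), and it was -0.069 without control replicate 4. Its copy Gm28438 stood at 2.67 ± 0.088 in Uba3 cKO ovaries and 2.74 ± 0.065 in control ovaries (SD, n = 5 each), below the filter. The gene mt-Nd4l stood at 4.596 ± 0.098 in Uba3 cKO ovaries and 4.66 ± 0.25 in control ovaries (SD, n = 5 each), a difference of -0.068 (standard error 0.11). The last protein gene, mt-Atp8, for the short membrane subunit of ATP synthase, stood at 0.38 ± 0.015 in Uba3 cKO ovaries and at 0.39 ± 0.038 in control ovaries and did not pass the filter. It shares 43 bases of its 204 with mt-Atp6.

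**Figure D5:**
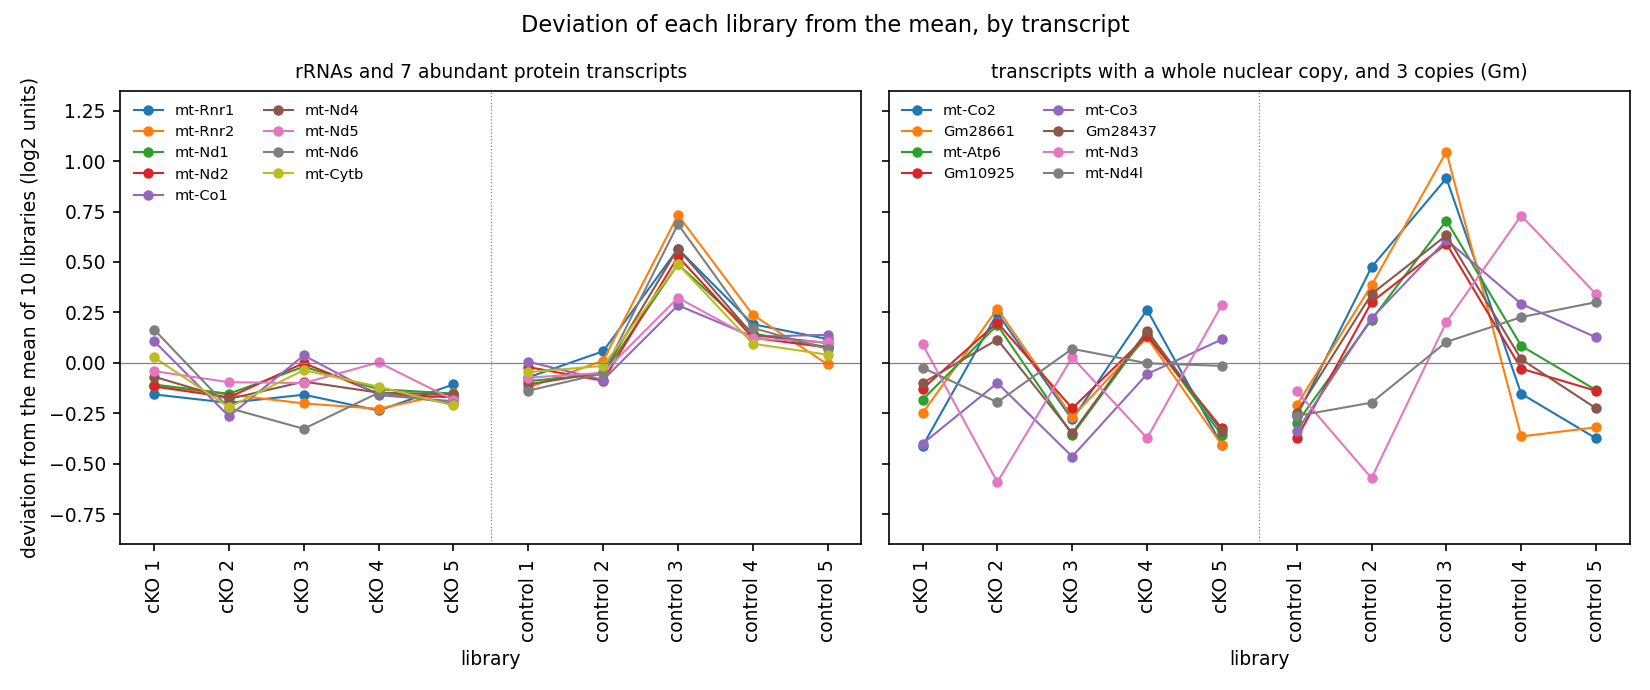
Deviation of each library from the mean of all 10 (log2 units) for the rRNAs and 7 abundant protein transcripts (left), and for the 5 transcripts with a whole nuclear copy and 3 of those copies (right). Lines join Uba3 cKO libraries and control libraries separately and only guide the eye. On the left the lines run together with a peak at control replicate 3, and on the right mt-Co2, mt-Atp6 and their copies are high in Uba3 cKO replicates 2 and 4 and in control replicates 2 and 3.

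One further nuclear copy, named after its values were seen, lies outside the stretch of 7 pseudogenes. Gm13340 matches mt-Co1 over its full 1545 bases at 97.6% identity, and it stood at 4.47 ± 0.12 in Uba3 cKO ovaries and 4.74 ± 0.13 in control ovaries (SD, n = 5 each), with overlapping libraries. Its difference was -0.26 (standard error 0.081, unadjusted limma p = 0.0069, limma adjusted p = 0.9999, exact two-sided permutation p = 0.0159). It is named because it was the only 1 of the 7 nuclear copies tested that was under an unadjusted p of 0.05; the other 6 had p-values from 0.126 to 0.463 by limma.

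The tRNAs, which read the codons of mitochondrial mRNAs, had low values, and 4 of the 5 in the table that are read from the light strand were the highest. The table holds 5 of the 8 light-strand tRNAs and 7 of the 14 heavy-strand tRNAs, so the order covers only these. Per kilobase, mt-Tp, mt-Tc, mt-Ty and mt-Tn had levels between 9.38 and 11.09 log2 units in Uba3 cKO ovaries and between 9.45 and 11.39 in control ovaries. The 7 heavy-strand tRNAs in the table had levels between 6.39 and 8.78 in Uba3 cKO ovaries and between 6.41 and 8.79 in control ovaries, and the fifth light-strand tRNA, mt-Te, had 8.02 in both groups. Sequences of these 4 are shown because their levels were the highest of the tRNAs, from GENCODE M21, with the anticodon in capitals and the gene's own sense strand written as DNA.
mt-Tp: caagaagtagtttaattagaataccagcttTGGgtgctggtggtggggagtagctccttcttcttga
mt-Tc: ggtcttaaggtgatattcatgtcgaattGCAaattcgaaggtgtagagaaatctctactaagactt
mt-Ty: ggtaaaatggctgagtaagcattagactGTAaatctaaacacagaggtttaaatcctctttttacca
mt-Tn: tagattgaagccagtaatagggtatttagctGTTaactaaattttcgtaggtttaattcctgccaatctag
They carry proline, cysteine, tyrosine and asparagine. At between 66 and 71 bases they are short for these libraries, and without strand a read from an uncut precursor of the heavy strand cannot be told apart from them.

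Of the 2 neighbours mt-Tc and mt-Ty, only mt-Tc had the lower mean in Uba3 cKO ovaries. The cysteine tRNA mt-Tc had 6.58, 6.53, 6.71, 6.39 and 6.76 log2 units in Uba3 cKO libraries, against 6.64, 6.59, 7.32, 7.04 and 6.98 in control libraries. Controls 3, 4 and 5 were above every Uba3 cKO library, and the difference was -0.32 (standard error 0.14, unadjusted limma p = 0.0358, exact two-sided permutation p = 0.0794). The tyrosine tRNA mt-Ty, next to it on the same strand, had 5.56, 5.52, 5.67, 5.49 and 5.56 in Uba3 cKO libraries, against 5.51, 5.50, 6.06, 5.31 and 5.36 in control libraries. Its difference was 0.013 (standard error 0.12), the only positive one, and 0.14 without control replicate 3. The difference between the 2 genes was not tested.

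Other tRNAs were spread between these. The proline tRNA mt-Tp differed by -0.31 (standard error 0.15) and the asparagine tRNA mt-Tn by -0.24 (standard error 0.15), and without control replicate 3 these differences were -0.17 for mt-Tp and -0.10 for mt-Tn. The glycine tRNA mt-Tg differed by -0.17 (standard error 0.086), with 3.83 ± 0.093 in Uba3 cKO ovaries and 4.004 ± 0.19 in control ovaries (SD, n = 5 each). The histidine, serine and leucine tRNAs that stand in a row between mt-Nd4 and mt-Nd5 (mt-Th, mt-Ts2 and mt-Tl2) differed by -0.035, -0.083 and -0.011, and the glutamate tRNA mt-Te by -0.0030. Of the 9 tested tRNAs 8 had the lower mean in Uba3 cKO ovaries, their median difference was -0.083, and 1 was at an unadjusted p under 0.05. Below the filter, mt-Tl1 stood at 3.08 ± 0.057 in Uba3 cKO and 3.14 ± 0.14 in control ovaries, mt-Tr at 2.95 ± 0.14 in Uba3 cKO and 2.86 ± 0.11 in control ovaries, and mt-Tw at 2.49 ± 0.10 in Uba3 cKO and 2.51 ± 0.098 in control ovaries (SD, n = 5 each).

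From the promoter of the heavy-strand precursor onward, the differences of the rRNAs and of the abundant protein genes read from that strand were -0.34 for mt-Rnr1, -0.34 for mt-Rnr2, -0.23 for mt-Nd1, -0.25 for mt-Nd2, -0.19 for mt-Co1, -0.26 for mt-Nd4, -0.17 for mt-Nd5 and -0.22 for mt-Cytb. The level of mt-Nd1 over that of mt-Rnr2, its upstream neighbour, was 3.27 ± 0.081 log2 units in Uba3 cKO libraries and 3.16 ± 0.13 in control libraries (SD, n = 5 each), with overlapping ranges. Across the same precursor, mt-Cytb over mt-Nd1 was 0.29 ± 0.081 in Uba3 cKO libraries and 0.29 ± 0.044 in control libraries. These proportions were described and not tested, and the part of RNA selection in that of mt-Nd1 over mt-Rnr2 is unknown.

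Nuclear genes that transcribe, cut, modify, bind or degrade mitochondrial RNA showed no common direction of this size. Of 36 listed names 35 were found and passed the filter, Fastkd4 being another name of Tbrg4. The lower mean was in Uba3 cKO ovaries for 22 and in control ovaries for 13, with a median difference of -0.028. By limma 0 passed adjustment and 0 were at an unadjusted p under 0.05. The polymerase Polrmt stood at 9.72 ± 0.047 in Uba3 cKO ovaries and 9.67 ± 0.064 in control ovaries, and Tfam, which packages the genome and helps to start its transcription, at 10.06 ± 0.034 in Uba3 cKO ovaries and 10.02 ± 0.086 in control ovaries (SD, n = 5 each). The initiation factor Tfb2m differed by -0.064 (standard error 0.097) and Lrpprc, which stabilises mitochondrial mRNAs, by 0.049 (standard error 0.10). The smallest p-values of the list belonged to Mtg2, a GTPase of mitochondrial ribosome assembly, with a difference of -0.17 (standard error 0.093), and Fastkd5, which takes part in the processing of mitochondrial mRNAs, with -0.16 (standard error 0.099) and, for both, a limma adjusted p of 0.9999.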

How the data were processed

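The authors deposited 1 table of log2 values for 22891 Ensembl genes in 10 libraries, from -0.21 to 20.19, with library medians between 6.29 and 6.44. The table does not name its transform. RNA was isolated with a PicoPure kit and made into TruSeq libraries for NovaSeq sequencing, per the labels' protocols. The tools fastp, STAR, featureCounts and DESeq2 and the build GRCm39 are named, without versions or roles, per the submitters' processing notes. A variance-stabilising transform would understate differences of low genes. The table holds no counts, so depth and counting error are unknown.

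Columns were matched to samples by the names in the labels. Symbols were found for 22188 genes. Gene order, strand, length and transcript sequences came from GENCODE M21, built on GRCm38, so no positions are given. The filter kept 15629 genes whose unlogged average was 10 or more (a log2 value of 3.32), which were tested with limma 3.58.1 in R 4.3.3 (mean-variance trend, no covariate, Benjamini-Hochberg adjustment, threshold 0.05). The fit was tested on simulated data. Single genes were also compared by an exact two-sided permutation test over 252 splits. Means over several members got no test. Level per kilobase is the log2 value minus log2 of the gene length in kilobases. Matches to nuclear transcripts were found with blastn 2.17.0. The text names every member, Uba3, the 4 companion genes Polrmt, Tfam, Tfb2m and Lrpprc and the 2 others with the smallest p; nuclear copies were named after their values were seen. The members and lists were chosen with earlier results of these data known. No 2 libraries were identical. In 19 alternative settings the filter, scaling, variance model, weights, replicate block, covariates and libraries were changed 1 at a time.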

Additional observations from a re-analysis of the deposited data

Results flagged for a closer look

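Values were checked for a library far from the other 4 of its group in 114 groups of 5, where chance flags about 1 group in 20. There were 5 such values, 4 of them in control replicate 3. In that library mt-Cytb was at 16.08 log2 units, with the next control at 15.69, and mt-Ty at 6.06, with the next at 5.51. Its slope on transcript length was -0.18, with the next at 0.010, and its level of mt-Nd6 relative to mt-Nd5 was -1.38, with the next at -1.69. Among Uba3 cKO libraries, mt-Tl2 was at 4.56 in replicate 2, with the next at 4.99.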

How the results depend on the processing

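Across 19 alternative settings 0 members passed the adjusted threshold, and the mean differences of the protein genes (from -0.29 to -0.13) and of the rRNAs (from -0.41 to -0.22) stayed below 0, nearest to it without control replicate 3. Members at an unadjusted p under 0.05 were 6 as reported, 11 with no filter and 3 with library quality weights, and from 2 to 9 with 1 library left out. Members whose groups did not overlap were 1 as reported, 0 with quantile normalization, and from 1 to 4 with 1 library left out (4 without control replicate 1). The share of all tested genes without overlap was computed only for the values as reported. Members with the lower mean numbered 19 without control replicate 4 and 23 without control replicate 2. The mean difference of the tRNAs was -0.13 as reported, -0.29 with a mean of at least 50, and from -0.18 to -0.092 with 1 library left out. Companion genes at an unadjusted p under 0.05 were 0 as reported, 1 with the length slope, and from 0 to 1 with 1 library left out. Of all tested genes 280 were at an unadjusted p under 0.05 as reported, 604 with no filter and 133 with a mean of at least 50. There were 366 with library quality weights, 448 with the oocyte covariate and 401 with the length slope. With 1 library left out there were from 199 to 392, and 1 gene passed adjustment with the length slope.

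The sign of mt-Te turned with quality weights (0.036), the oocyte covariate (0.0020) and the length slope (0.0035), and that of Uba3 with median centring (-0.0020), quality weights (-0.048), the oocyte covariate (-0.0043) and the length slope (-0.015). With 1 library left out, ranges that crossed 0 were -0.033 to 0.038 for mt-Te, -0.056 to 0.066 for Uba3, -0.16 to 0.070 for mt-Th, -0.13 to 0.090 for mt-Tl2, -0.16 to 0.0084 for mt-Ts2, -0.046 to 0.14 for mt-Ty, -0.015 to 0.12 for Lrpprc and -0.33 to 0.021 for Gm28661; the cause was not tested. Correlations of same-numbered deviations ran from -0.34 to 0.32, which does not settle whether replicate numbers pair the libraries. With the replicate block 6 members and 311 of all tested genes were at an unadjusted p under 0.05, and 0 members passed adjustment. Neither scaling moved the median of all genes by more than 0.0052. The unknown depth limits what can be said of the low tRNAs.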
